A study of Mus musculus with 10 samples.

Results

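Disease-associated microglia markers were followed in the lumbar spinal cord of SOD1G86R mice, a model of amyotrophic lateral sclerosis. The 10 genes are Cst7, Clec7a, Spp1, Gpnmb, Cd9, Cd63, Cd68, Lgals3, Igf1 and Axl, taken by symbol from a table of 32506 genes, where 10 of 10 were found. RNA was sequenced from 5 SOD1G86R mice and 5 litter-matched non-transgenic wild type mice (WT), all females of the FVB/N strain aged 95 days and each giving 1 library. SOD1G86R mice (labelled +/-) carry and overexpress a transgene for a mutant superoxide dismutase in addition to their own Sod1 gene, and all mice were perfused with PBS before dissection. They are symptomatic at this age, and by the study's account the severity of symptoms varies from mouse to mouse.

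Microglia are the resident macrophages of the spinal cord. In neurodegeneration, and when they clear myelin or dying cells, many of them take on a state named disease-associated, in which genes for lysosomes, lipid handling, phagocytic receptors and secreted factors are switched on. Genes of the resting state, such as P2ry12 and Tmem119, are often turned down in the same cells, and the full state depends on the lipid receptor TREM2. None of the 10 markers is exclusive to microglia. Spp1 is also made by motor neurons, Cd9 and Cd63 by glia and many other cells, Axl by astrocytes and endothelial cells, and Igf1 by some neurons. In whole tissue, more cells of a type and more RNA per cell cannot be told apart.

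Counts were scaled by TMM to the library total (CPM, counts scaled to 1e6), and SOD1G86R was compared with WT by the quasi-likelihood test of edgeR over 16974 genes with enough counts, with Benjamini-Hochberg adjustment and the study's limit of 0.01 on the adjusted p. All 10 markers entered the test, Cst7 through the SOD1G86R mice, since 5 of them and 1 WT mouse reached the filter's level of 0.309 CPM. Each of the other 9 reached it in all 10 mice. The libraries held 31494723 to 37080445 counts in SOD1G86R mice and 29333590 to 46003999 in WT mice. Sod1, the transgene's gene, was 3918.5 to 6415.3 CPM in SOD1G86R mice and 127 to 209.8 CPM in WT mice, in the direction of the labels. SOD1G86R replicate 4 stood apart from the other 4 mice of its group, and is given separately wherever it moved a result. It had the lowest Sod1 level of its group, 3918.5 CPM against 4823 to 6415.3 CPM in the other 4. Its summed level of 8 sensory ganglion markers was 165.6 CPM, against 64.9 to 98.0 CPM in the other SOD1G86R mice and 87.0 to 104 CPM in WT mice. The part of ganglion tissue or of the transgene level in its marker levels was not tested.

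All 10 markers had a positive log2 fold change in SOD1G86R mice, but only Cd68, a glycoprotein of lysosomes, and Axl, a receptor for dying cells, rose past the test. That is 2 of 10 markers, where 0.866% of all tested genes rose, and 0 of 10 fell, where 0.253% of all genes fell. At an unadjusted p under 0.05, 9 of 10 markers were higher, against 10.8% of all genes, and at an adjusted limit of 0.05 there were 8, against 3.85%. Their median log2 fold change was 1.45, against -0.01 over all tested genes. Without Cst7, which entered through the group where it was high, 2 of 9 markers rose, 8 of 9 were higher at an unadjusted p under 0.05 and the median was 1.11. DESeq2, the tool of the study, called 8 of 10 markers higher, where it called 4.1% of all genes higher, and limma voom called 0, where it called 0.171%. In 5 of 10 markers (Cst7, Clec7a, Spp1, Cd68 and Axl) every SOD1G86R mouse lay above every WT mouse, which held for 3.09% of all genes. Cst7 is counted among these 5, among the 8 called by DESeq2 and among the 8 at an adjusted limit of 0.05. In 0 of 10 every SOD1G86R mouse lay below, as in 1.84% of all genes. The plot of CPM by mouse shows that a single SOD1G86R mouse, replicate 4, lay near WT for nearly all of them.

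**Figure D1:**
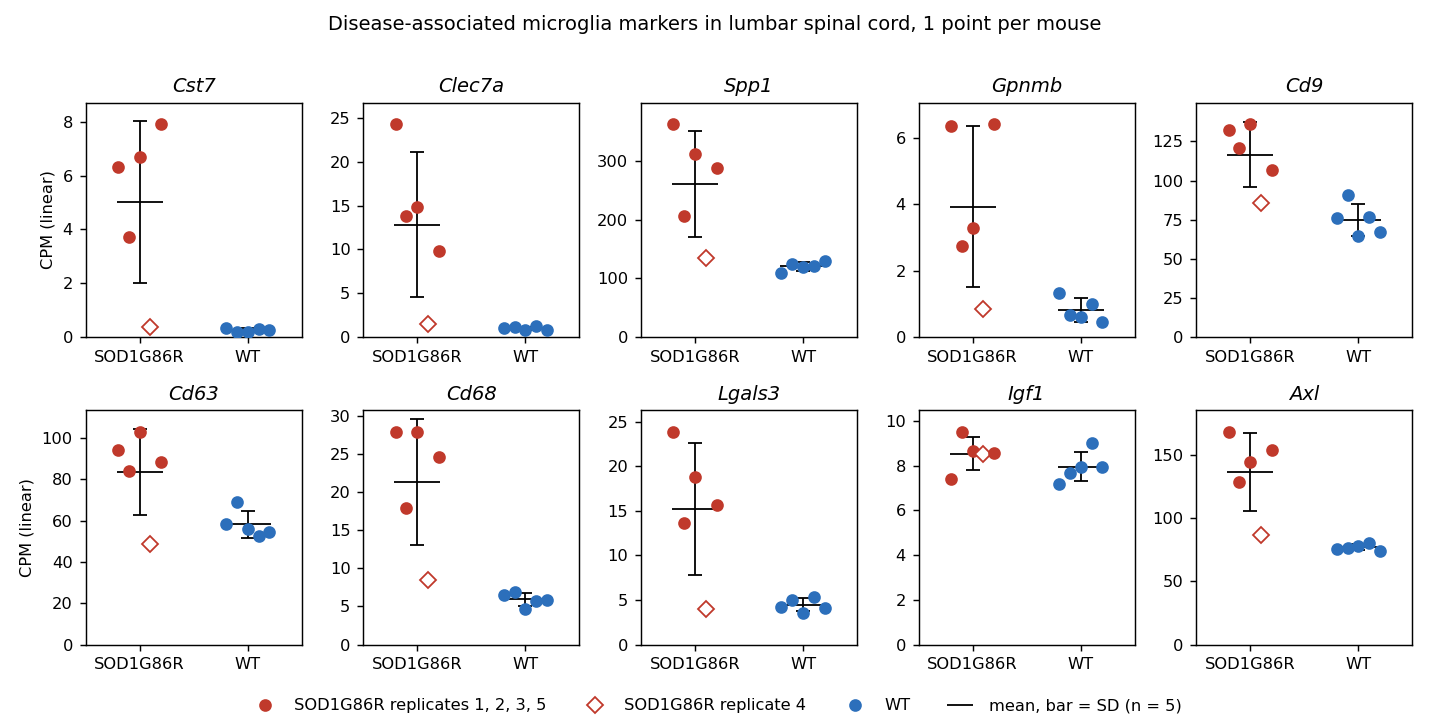
CPM (linear axis from 0) of each of the 10 markers in SOD1G86R mice (left, red; open diamond, replicate 4) and WT mice (right, blue), with the mean and SD of 5 mice per group. Replicates 1, 2, 3 and 5 of SOD1G86R lie above every WT mouse in all panels but Igf1, whereas replicate 4 lies close to WT, for example at 0.357 CPM of Cst7 against 0.341 CPM in the highest WT mouse.

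To show the DNA in front of the markers that did not overlap between the groups, their proximal promoters are given as the 250 bases before the RefSeq start site, from RefSeq for GRCm38.p6, written 5′ to 3′ on the gene's strand. Capitals mark GAGGAA, or on the other strand TTCCTC. These letters were taken here as the core of the site of PU.1, the factor that sets up the macrophage lineage. For Spp1 capitals mark the longer motif GAGGAAGT, which contains these letters.
Spp1 (chr5:104434861-104435110, plus strand): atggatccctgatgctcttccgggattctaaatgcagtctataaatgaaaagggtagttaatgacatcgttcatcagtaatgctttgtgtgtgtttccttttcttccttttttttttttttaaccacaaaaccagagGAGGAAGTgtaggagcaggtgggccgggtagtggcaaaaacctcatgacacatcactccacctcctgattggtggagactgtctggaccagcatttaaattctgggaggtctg
Clec7a (chr6:129472780-129473029, minus strand): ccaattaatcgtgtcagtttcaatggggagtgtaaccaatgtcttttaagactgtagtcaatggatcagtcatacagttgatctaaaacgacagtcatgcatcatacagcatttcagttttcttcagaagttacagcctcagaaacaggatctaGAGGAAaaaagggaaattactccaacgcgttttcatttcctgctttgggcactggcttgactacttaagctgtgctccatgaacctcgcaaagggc
Cd68 (chr11:69666171-69666420, minus strand): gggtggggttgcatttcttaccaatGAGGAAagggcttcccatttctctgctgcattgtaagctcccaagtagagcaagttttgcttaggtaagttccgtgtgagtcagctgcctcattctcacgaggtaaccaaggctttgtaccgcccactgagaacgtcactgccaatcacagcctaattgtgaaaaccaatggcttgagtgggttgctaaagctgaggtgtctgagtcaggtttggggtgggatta
Axl (chr7:25788734-25788983, minus strand): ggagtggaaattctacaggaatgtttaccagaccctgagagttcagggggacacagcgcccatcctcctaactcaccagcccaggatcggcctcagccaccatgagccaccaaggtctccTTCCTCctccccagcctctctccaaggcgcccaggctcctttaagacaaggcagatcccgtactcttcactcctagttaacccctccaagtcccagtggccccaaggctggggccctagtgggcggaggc
Cst7 (chr2:150570165-150570414, plus strand): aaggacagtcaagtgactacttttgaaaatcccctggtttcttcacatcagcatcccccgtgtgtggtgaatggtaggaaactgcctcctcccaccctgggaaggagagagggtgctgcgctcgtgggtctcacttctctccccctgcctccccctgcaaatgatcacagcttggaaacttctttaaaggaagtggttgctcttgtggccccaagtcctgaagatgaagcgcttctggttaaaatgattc
Spp1 was the single marker whose window held GAGGAAGT on either strand (ACTTCCTC), 113 bases before the start site, and 2.44% of 32851 windows of the same length held it. The core was found in 6 of 10 markers (Clec7a, Spp1, Cd63, Cd68, Igf1 and Axl) and 7 of the 12 windows of the 10 markers, against 23.3% of all windows. Its first base was 96 bases before the start of Clec7a, 225 before that of Cd68 and 130 before that of Axl, there on the other strand. The Cst7 window did not hold GAGGAA on either strand, and shorter or variant sites were not searched. CACGTG, the E-box, was in 0 of 10 markers and 6.02% of windows, and TCATGTG, the M-box of the MiT factors, in 0 of 10 and 3.25%. These are matches of letters in 1 short window, not sites shown to be bound.

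Receptors for phagocytic cargo came first. Clec7a encodes Dectin-1, which binds fungal beta-glucans and is a widely used surface marker of disease-associated microglia (chr6:129461591-129472779, minus strand, GENCODE M21 for GRCm38). It had 24.3, 13.8, 14.9, 1.43 and 9.81 CPM in SOD1G86R replicates 1 to 5, against 0.989, 1.08, 0.759, 1.21 and 0.846 CPM in WT replicates 1 to 5. The groups did not overlap, although replicate 4 lay just above the highest WT mouse while the other 4 SOD1G86R mice were many times higher. Its mean was 12.8 ± 8.31 CPM in SOD1G86R and 0.977 ± 0.180 CPM in WT (SD, n = 5 each), a log2 difference of 3.72 ± 0.65 (SE, the standard error of the fitted value; edgeR adjusted p = 0.0154), which missed the limit. Axl encodes a receptor tyrosine kinase that recognises phosphatidylserine on dying cells through its bridging ligand Gas6 (chr7:25757273-25788705, minus strand). Its levels were 168, 128, 144, 86.9 and 154 CPM in SOD1G86R mice, against 75.7, 76.6, 77.9, 79.9 and 73.8 CPM in WT mice. The WT mice lay close together, and all 5 SOD1G86R mice were above them. Axl rose on the log2 scale by 0.83 ± 0.14 (SE, edgeR adjusted p = 0.00906), with means of 136 ± 31.2 CPM in SOD1G86R and 76.8 ± 2.30 CPM in WT (SD, n = 5 each).

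Among the lysosomal markers, Cst7 had the largest fold change of the 10 genes and Cd68 passed the test. Cst7 encodes cystatin F, an inhibitor of the lysosomal cysteine proteases (chr2:150570415-150578944, plus strand). It had 6.34, 3.73, 6.71, 0.357 and 7.92 CPM in SOD1G86R mice, against 0.341, 0.191, 0.182, 0.279 and 0.260 CPM in WT mice, where it was nearly absent. The WT values rest on 6 to 12 counts per library. The groups did not overlap, with SOD1G86R replicate 4 just above the highest WT mouse. With means of 5.01 ± 3.02 CPM in SOD1G86R and 0.251 ± 0.0659 CPM in WT (SD, n = 5 each), the log2 fold change was 4.31 ± 0.72 (SE, edgeR adjusted p = 0.0115), short of the limit. Cd68, also called macrosialin, coats the inner face of late endosomes and lysosomes of macrophages (chr11:69664213-69666153, minus strand). SOD1G86R mice had 27.9, 17.9, 27.9, 8.46 and 24.6 CPM of it, against 6.51, 6.89, 4.71, 5.74 and 5.88 CPM in WT mice. Here replicate 4 was also above all WT mice. Cd68 rose on the log2 scale by 1.85 ± 0.30 (SE, edgeR adjusted p = 0.00917), with means of 21.4 ± 8.28 CPM in SOD1G86R and 5.95 ± 0.837 CPM in WT (SD, n = 5 each). Gpnmb, a glycoprotein of lysosomes and melanosomes (chr6:49036546-49070929, plus strand), ranged over 0.843 to 6.41 CPM in SOD1G86R mice and 0.455 to 1.33 CPM in WT mice. The groups overlapped in replicate 4, and the log2 fold change was 2.30 ± 0.52 (SE, edgeR adjusted p = 0.0336).

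The tetraspanins Cd9 and Cd63 were again lowest in SOD1G86R replicate 4, with smaller differences between the groups. Tetraspanins are membrane organisers, and CD63 sits in late endosomes, lysosomes and exosomes. Cd9 (chr6:125460266-125494791, minus strand) ranged over 85.4 to 136 CPM in SOD1G86R mice and 64.4 to 90.6 CPM in WT mice, and 4 of 5 SOD1G86R mice were above all WT mice. Its log2 fold change was 0.64 ± 0.13 (SE, edgeR adjusted p = 0.0159). Cd63 (chr10:128900989-128912822, plus strand) ranged over 48.6 to 103 CPM in SOD1G86R mice and 52.5 to 69.2 CPM in WT mice. Replicate 4 was below every WT mouse for Cd63, and the log2 fold change of 0.52 ± 0.17 (SE, edgeR adjusted p = 0.133) was the second smallest of the markers. Oligodendrocytes also express Cd9. The sum of 6 oligodendrocyte markers was 33103 to 37573 CPM in SOD1G86R mice and 36755 to 41694 CPM in WT mice. Of these 6 genes 0 passed the test, where 0.866% of all genes rose and 0.253% fell (1 was lower at an unadjusted p under 0.05). The pseudogenes Cd9-ps and Cd63-ps took 0 and 4 to 25 counts per library. Gm26728, which overlaps exons of Cd9 on the opposite strand, took 0 to 4.

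Of the secreted factors, Spp1 and Lgals3 ranked the SOD1G86R mice alike, with replicate 1 highest and replicate 4 lowest. Spp1 encodes osteopontin, an extracellular ligand of integrins and CD44 (chr5:104435118-104441050, plus strand). It had 363, 207.1, 313, 135 and 288 CPM in SOD1G86R mice, against 108, 125, 119.6, 121 and 129 CPM in WT mice. All SOD1G86R mice were above all WT mice, replicate 4 by little. With means of 261 ± 90.1 CPM in SOD1G86R and 121 ± 7.70 CPM in WT (SD, n = 5 each), the log2 fold change was 1.11 ± 0.23 (SE, edgeR adjusted p = 0.0265). Gm42793, which overlaps 309 exonic bases of Spp1 on the same strand, took 0 to 8 counts per library. How reads in the overlap were assigned was not tested. Motor neurons express Spp1 in healthy cord. The sum of 7 motor neuron markers was 127 to 276 CPM in SOD1G86R mice, highest in replicate 4, and 169 to 231 CPM in WT mice, and which cells gave the Spp1 reads was not tested. Lgals3 encodes galectin-3, a lectin that is secreted and also gathers on damaged lysosomes (chr14:47367751-47386160, plus strand). SOD1G86R mice had 23.9, 13.7, 18.8, 3.99 and 15.7 CPM, against 4.16, 5.02, 3.55, 5.33 and 4.14 CPM in WT mice. Replicate 4 lay within the WT range and the other 4 SOD1G86R mice lay above it. The log2 fold change of Lgals3 was 1.78 ± 0.39 (SE, edgeR adjusted p = 0.0361).

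Igf1, a growth factor that supports neurons and myelination, stood apart from the other markers (chr10:87858265-87937042, plus strand). It had 7.41, 9.52, 8.67, 8.53 and 8.56 CPM in SOD1G86R mice, against 7.19, 7.69, 7.95, 8.99 and 7.94 CPM in WT mice. The groups overlapped throughout and only 1 SOD1G86R mouse was above all WT mice. The log2 fold change was 0.10 ± 0.09 (SE, edgeR adjusted p = 0.606), with a 95% interval of -0.07 to 0.28. It was also the single marker for which replicate 4 was not the lowest mouse of its group.

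**Figure D2:**
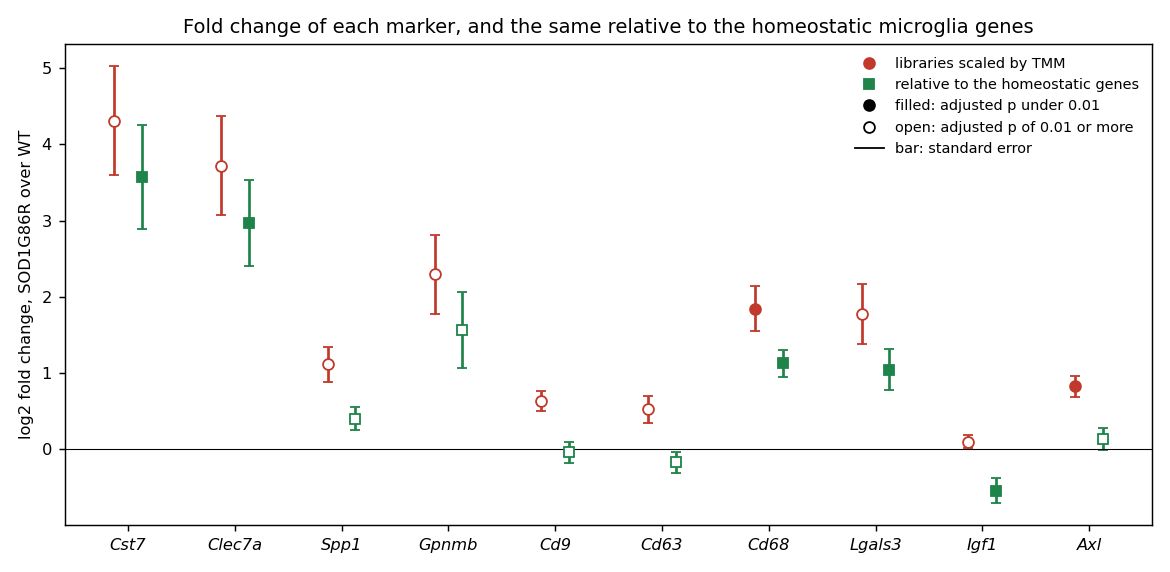
Log2 fold change of SOD1G86R over WT with its standard error for the 10 markers, without correction and relative to 12 homeostatic microglia genes. The 10 uncorrected values run between 0.10 for Igf1 and 4.31 for Cst7, and relative to the homeostatic genes the values of Cd9, Cd63 and Axl lie near 0.

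The differences between SOD1G86R mice were shared by the markers. Against the WT mean, the median log2 difference over the 10 markers was 1.91, 1.19, 1.71, 0.17 and 1.54 in SOD1G86R replicates 1 to 5. The number of markers above all WT mice was 9, 10, 9, 5 and 9 in the same mice. Replicate 4 was the lowest of its group for 9 of 10 markers, while replicate 1 was the highest for 4, replicate 3 for 3, replicate 5 for 2 and replicate 2 for 1. The mean of the 12 homeostatic microglia genes followed a like order, at 0.86, 0.66, 0.88, 0.25 and 0.65 on the log2 scale above the WT mean, so that replicate 4 was the lowest there as well.

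**Figure D3:**
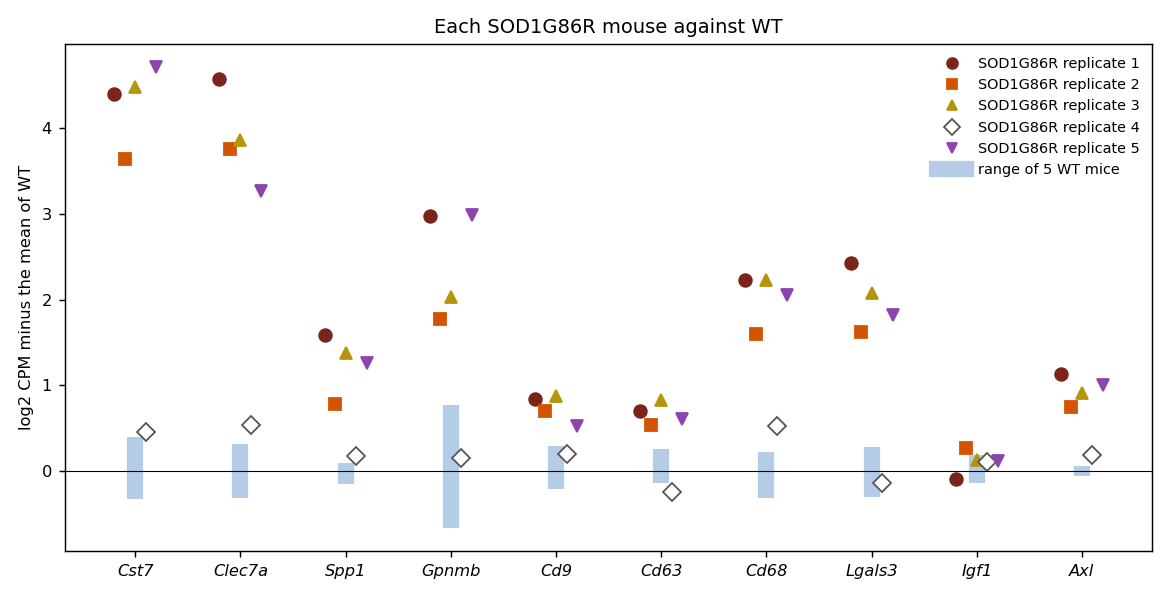
Log2 difference of each marker from the WT mean in each SOD1G86R mouse (points), with the range of the WT mice as a shaded bar. SOD1G86R replicate 4, with a median of 0.17 over the markers, lies near the WT range, and the other 4 SOD1G86R mice have medians of 1.19 to 1.91.

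The calls turned on replicate 4. Without it, 9 of 10 markers were higher at the adjusted limit of 0.01, all but Igf1, where 4.55% of all tested genes were higher. Cst7, which entered the test through the SOD1G86R mice, is among these 9. The log2 fold change was then 4.61 for Cst7 (edgeR adjusted p = 1.62e-07), 4.01 for Clec7a (1.33e-06), 2.05 for Cd68 (9.77e-07) and 0.95 for Axl (1.24e-06). Among these 9, Cd63 had the smallest log2 fold change, 0.67 (0.000141), and Gpnmb the largest adjusted p, 0.000412. Igf1 was unmoved at 0.10 (0.618). The means of these 4 SOD1G86R mice over WT gave ratios of 24.6 for Cst7, 16.1 for Clec7a, 5.79 for Gpnmb, 4.13 for Cd68, 4.05 for Lgals3, 2.43 for Spp1, 1.93 for Axl, 1.66 for Cd9 and 1.59 for Cd63. Leaving out any other single mouse left 0 of 10 markers past the limit by edgeR, with 9 of 10 at an unadjusted p under 0.05 each time. In those fits 0.07 to 0.187% of all tested genes were higher, so that 0 of 10 is close to the share of all genes. In those fits the adjusted p of Cd68 reached 0.0367 and that of Axl 0.0331, both without WT replicate 3.

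**Figure D4:**
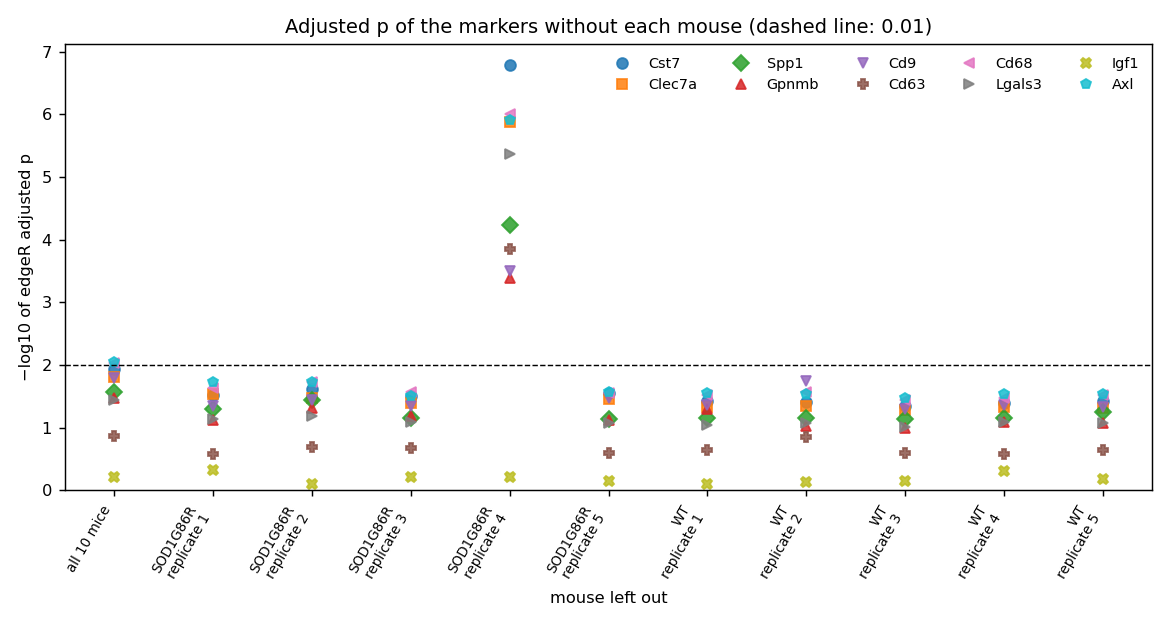
EdgeR adjusted p (log axis) of each marker with all 10 mice and with each mouse left out, SOD1G86R mice left of WT mice. Without SOD1G86R replicate 4, 9 of 10 markers lie past the limit of 0.01, and without any other mouse 0 of 10 do.

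Between genes, levels were compared as CPM per kilobase of exon. In SOD1G86R cords the order was Spp1 (158.6), Cd9 (57.0), Axl (27.1), Cd63 (22.7), Cd68 (17.0), Lgals3 (8.18), Cst7 (5.08), Clec7a (4.87), Igf1 (0.862) and Gpnmb (0.602). The neighbours between Axl and Clec7a in that order, and Igf1 and Gpnmb, did not differ beyond the sum of their SDs. In WT cords the order was Spp1 (73.2), Cd9 (36.7), Cd63 (15.8), Axl (15.3), Cd68 (4.73), Lgals3 (2.39), Igf1 (0.803), Clec7a (0.370), Cst7 (0.254) and Gpnmb (0.124), and the neighbours Cd63 and Axl, and Clec7a and Cst7, did not differ beyond their SDs. Cst7 and Clec7a lay above Igf1 in SOD1G86R cords and below it in WT cords. In SOD1G86R replicate 4, with 0.362 for Cst7, 0.541 for Clec7a and 0.861 for Igf1, the order was that of WT.

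Genes of homeostatic microglia were measured in the same libraries. Of 12 such genes 4 rose, where 0.866% of all genes did, and 0 fell, with a median log2 fold change of 0.56. At an unadjusted p under 0.05, 11 of 12 were higher, against 10.8% of all genes. Their summed level was 619.9 to 1068 CPM in SOD1G86R mice and 486 to 604 CPM in WT mice. Olfml3, a secreted matrix protein of microglia, rose by 0.90 ± 0.14 (SE, edgeR adjusted p = 0.00662) and Fcrls, an Fc receptor-like protein, by 2.10 ± 0.34 (SE, adjusted p = 0.00729). Cx3cr1, the fractalkine receptor, rose by 0.73 ± 0.12 (SE, adjusted p = 0.00809) and Siglech, a sialic acid-binding lectin, by 0.56 ± 0.10 (SE, adjusted p = 0.00908). The groups of Cx3cr1 overlapped in 1 SOD1G86R mouse. P2ry12, a purine receptor, ranged over 35.6 to 42.8 CPM in SOD1G86R mice and 27.6 to 38.5 CPM in WT mice, a log2 fold change of 0.20 ± 0.09 (SE, edgeR adjusted p = 0.271), and Tmem119 had 0.50 ± 0.11 (SE, edgeR adjusted p = 0.0233). These 2 genes were named after their values were seen. Without SOD1G86R replicate 4, 9 of the 12 genes were higher, where 4.55% of all genes were. Without any other single mouse 0 or 1 passed, where 0.07 to 0.187% of all genes were higher. Of the 4 calls 1, that of Olfml3, held in 1 of those 9 fits.

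The markers were tested again relative to that list, with each library's scale raised by its mean log2 level of the 12 genes. On this scale a value of 0 means that a gene moved as much as the homeostatic genes did. The median over all genes was shifted to -0.65, and 74.2% of all tested genes were lower and 1.03% higher. Relative to the list, 4 of 10 markers were higher, which were Clec7a by 2.96 ± 0.56 (SE, edgeR adjusted p = 0.00124), Cst7 by 3.57 ± 0.68 (SE, adjusted p = 0.00127), Cd68 by 1.13 ± 0.18 (SE, adjusted p = 6.17e-05) and Lgals3 by 1.04 ± 0.27 (SE, adjusted p = 0.00304). At an unadjusted p under 0.05 there were 6 higher, against 1.73% of all genes. With so many genes past the limit the adjustment was mild, so these adjusted p are not comparable with those of the plain test. The edgeR unadjusted p was larger than in the plain test for Cst7 (0.000698 against 0.000161), Clec7a (0.000682 against 0.000306) and Lgals3 (0.00198 against 0.00135). For Cd68 it was smaller (4.23e-07 against 9.996e-05). Gpnmb had 1.56 ± 0.50 (SE, adjusted p = 0.0151) and Spp1 0.41 ± 0.15 (SE, adjusted p = 0.0162). Axl, which rose on the plain scale, had 0.14 ± 0.14 (SE, adjusted p = 0.353), Cd9 had -0.04 ± 0.14 (SE, adjusted p = 0.798) and Cd63 had -0.17 ± 0.14 (SE, adjusted p = 0.259). The sign of Cd9 changed with the homeostatic genes used and without WT replicate 1, and that of Cd63 with the genes used. Igf1 had -0.54 ± 0.16 (SE, adjusted p = 0.0034), past the limit as most genes were. By this mild adjustment, Cst7, Clec7a and Cd68 passed with any 1 of the 10 mice left out. Lgals3 passed in 8 of these 10 fits, and the lower value of Igf1 in 7. The Igf1 value missed the limit without WT replicate 3 (adjusted p = 0.0109), WT replicate 4 (0.0109) or SOD1G86R replicate 1 (0.0156). Without SOD1G86R replicate 4, 6 markers were higher, the 4 above with Gpnmb and Spp1, where 1.73% of all genes were. Without Cst7, 3 of the other 9 markers were higher relative to the list.

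Other genes of the disease-associated state were taken as a wider list of 24, of which 23 were matched and tested. Of these 2 rose, 0 fell and 21 did not pass, where 0.866% of all genes rose and 0.253% fell. At an unadjusted p under 0.05, 16 of 23 were higher, against 10.8% of all genes, and the median log2 fold change was 0.47. Cd52, a small glycoprotein on the surface of immune cells, rose by 2.10 ± 0.31 (SE, edgeR adjusted p = 0.00665). Ch25h, the enzyme that makes 25-hydroxycholesterol from cholesterol, rose by 2.78 ± 0.44 (SE, adjusted p = 0.00853). Next by p were Ctsd, the lysosomal protease cathepsin D, at 1.16 ± 0.20 (SE, adjusted p = 0.0119), and Itgax, the integrin CD11c, at 4.07 ± 0.72 (SE, adjusted p = 0.0169), with 15.0 ± 8.64 CPM in SOD1G86R and 0.889 ± 0.388 CPM in WT (SD, n = 5 each). Without SOD1G86R replicate 4, 14 of the list's genes were higher, where 4.55% of all genes were. Without any other single mouse 0 were, close to the 0.07 to 0.187% of all genes. Relative to the homeostatic list 7 of 23 were higher and 6 lower, where 1.03% of all genes were higher and 74.2% lower.

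**Figure D5:**
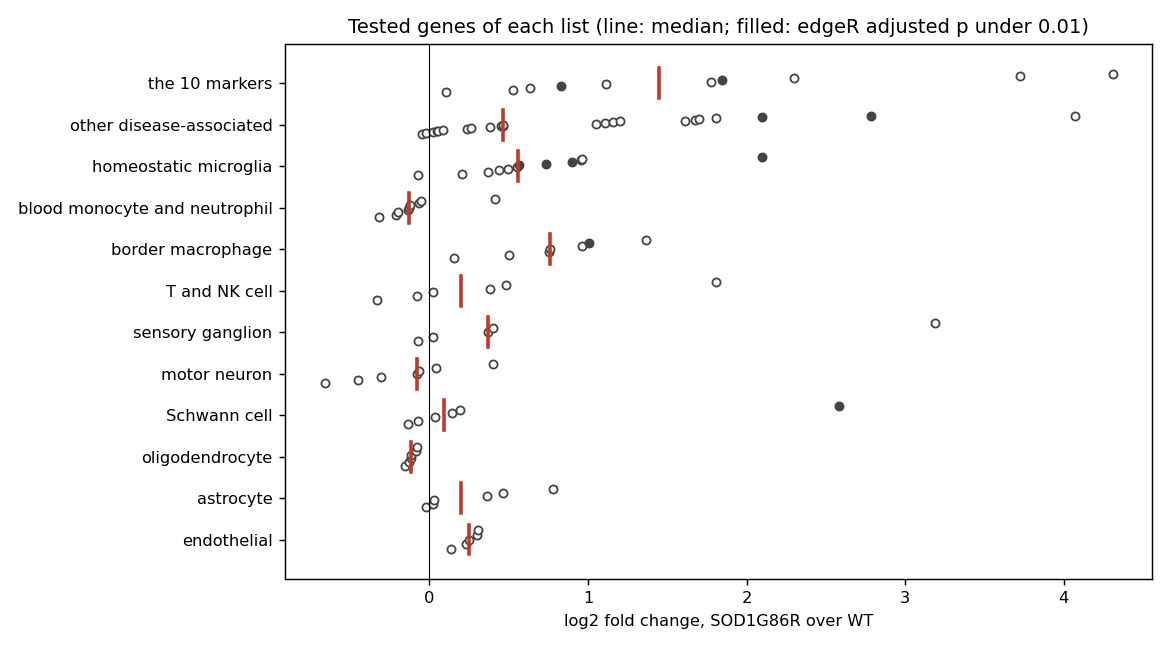
Log2 fold change of SOD1G86R over WT for the genes of each list, with the median of each list. The 10 markers have a median of 1.45, the wider disease-associated list 0.47 and the homeostatic list 0.56, against -0.01 over all genes.

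Lists for other cells of the cord, its borders and its blood were read beside the markers. Over all tested genes, 0.866% rose past the limit, 0.253% fell and 10.8% were higher at an unadjusted p under 0.05. The counts of 0 past the limit below are close to the first 2 shares. Blood monocyte and neutrophil markers summed to 19.0 to 108 CPM in SOD1G86R mice, highest in replicate 4, and 15.4 to 90.1 CPM in WT mice, and 0 of the 9 tested passed, with Ly6g at 0 in some libraries and 0 at an unadjusted p under 0.05. Markers of border macrophages, which share many genes with microglia, summed to 11.1 to 16.1 CPM in SOD1G86R mice and 6.55 to 9.98 CPM in WT mice, with a median log2 fold change of 0.76. Of these 7 genes 6 were higher at an unadjusted p under 0.05. Past the limit 1 rose, the mannose receptor Mrc1, by 1.01 ± 0.13 (SE, edgeR adjusted p = 0.00163), named here after its value was seen. T and NK cell markers summed to 3.23 to 7.26 CPM in SOD1G86R mice and 2.85 to 6.61 CPM in WT mice, with 0 of 6 tested genes past the limit, 1 higher at an unadjusted p under 0.05 and Ncr1 at 0 in some libraries. Astrocyte markers summed to 6231 to 9927 CPM in SOD1G86R mice and 5469 to 6507 CPM in WT mice, with 0 of 6 past the limit and 3 higher at an unadjusted p under 0.05. Endothelial markers summed to 187 to 226 CPM in SOD1G86R mice, highest in replicate 4, and 126 to 207.2 CPM in WT mice, with a median log2 fold change of 0.25, 0 of 5 past the limit and 3 higher at an unadjusted p under 0.05. Schwann cell markers summed to 200.5 to 286 CPM in SOD1G86R mice and 230.3 to 285 CPM in WT mice, with a median of 0.09. Of these 6 genes 1 rose, the transcription factor gene Egr2, by 2.58 ± 0.40 (SE, edgeR adjusted p = 0.00583), likewise named after its value was seen. Mrc1 passed with any 1 of the 10 mice left out, and Egr2 in 2 of these fits, without SOD1G86R replicate 4 and without WT replicate 4. The part of these cells in the marker levels was not tested.

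The genes whose profile over the 10 mice lay nearest to the mean profile of the 10 markers were sought among all other tested genes, by the root mean square difference of standardised log2 CPM. They were Ch25h (0.0737), Ctsd (0.0822), the interferon-induced Ifit3 (0.102), the lipid receptor gene Trem2 (0.110) and Ifit3b (0.110), where the median gene was at 1.38. The first 2 and Trem2 are also on the wider disease-associated list. Trem2 had 42.5 ± 16.8 CPM in SOD1G86R and 13.9 ± 1.59 CPM in WT (SD, n = 5 each), with a log2 fold change of 1.61 ± 0.31 (SE, edgeR adjusted p = 0.0186). Among the markers themselves the distance was smallest for Clec7a (0.135) and largest for Igf1 (1.09). The likeness is a description over 10 mice that differ in genotype.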

How the data were processed

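Lumbar spinal cord RNA of 5 SOD1G86R and 5 WT mice was sequenced. The authors aligned reads to the mm10 assembly in TopHat2 2.0.14 and assigned them to Ensembl genes in HTSeq 0.6.1 (methods and submitters' processing notes). They deposited unnormalized counts for 32506 genes, of which 32247 were matched to a symbol and 3078 had no count. Library kit and strandedness were not found in the sources used, so that reads of overlapping antisense genes may be shared.

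Counts were analysed with R 4.3.3 and edgeR 4.0.16 (filterByExpr, TMM scaling, robust quasi-likelihood test on genotype, Benjamini-Hochberg adjustment, limit 0.01), whereas the study used DESeq2. The standard error of a log2 fold change is its size divided by the square root of F. P-values measure the spread between mice. No 2 libraries of a group were duplicates (at least 8.4 chi-square per gene). For the relative test, the offset of each library was raised by its mean log2 CPM (prior count 2) over 12 homeostatic genes, which carry microglial number and microglial state together. Alternatives were median-ratio size factors in edgeR, no filter, at least 1 CPM in 5 libraries, no robust fit and a limit of 0.05. Others were DESeq2 1.42.0, limma voom 3.58.1, the replicate block and each mouse left out. In 1 more, Sod1 and the predicted pseudogene Gm8566, close to Sod1 in sequence by the study's account, were left out. On simulated counts edgeR was tested before use.

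The markers and lists were chosen with earlier results of these data known. Named were all 10 markers, up to 4 genes per microglial list with the smallest p, Sod1 and the 5 nearest profiles, and 4 other genes after their values were seen. Positions are from GENCODE M21 and promoters from RefSeq, both on GRCm38. Clec7a is annotated there as a polymorphic pseudogene. Protein sequences were not used here.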

Additional observations from a re-analysis of the deposited data

Results flagged for a closer look

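The summed level of the wider disease-associated list had 1 WT mouse far from the others. WT replicate 2 had 11021 CPM, against 9563 to 9876 CPM in the other 4 WT mice, while SOD1G86R mice had 8886 to 13402 CPM. Fth1 was the largest part of these sums, with means of 5466 CPM in SOD1G86R and 5539 CPM in WT. As a mean log2 level over the list, SOD1G86R replicate 4, the lowest by sum, was 0.09 above the WT mean. The gap of WT replicate 2 to the nearest mouse was more than Dixon's critical value of 0.71 of the group's range. This was 1 of 46 groups examined, where chance gives about 1 in 20. SOD1G86R replicate 4 met this criterion in 0 of them.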

How the results depend on the processing

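The number of markers past the limit was 2 with all mice and moved with most settings. It stayed at 2 with other size factors, with at least 1 CPM in 5 libraries and without Sod1 (Cst7 did not enter at 1 CPM), whereas it was 0 without the filter (0.656% of all genes), 5 without the robust fit (1.5%), 8 by DESeq2 (4.1%), 0 by limma voom (0.171%) and 8 at a limit of 0.05 (3.85%). The counts of 0 are close to those shares. For the wider disease-associated list, 2 in the main test, these settings gave 0 without the filter, 8 without the robust fit, 12 by DESeq2, 0 by voom and 10 at 0.05. For the homeostatic list, 4 in the main test, they gave 2 without the filter, 6 without the robust fit, 9 by DESeq2, 0 by voom and 9 at 0.05. With 1 mouse left out the counts ranged over 0 to 9 markers, 0 to 14 genes of the wider list and 0 to 9 homeostatic genes, and every count above 1 came from leaving out SOD1G86R replicate 4. At a limit of 0.05 without that mouse, an alternative chosen after seeing the data, 9 markers passed (6.56% of all genes). Relative to the homeostatic list, where the adjustment was mild, 4 markers in the main test ranged over 3 to 6 under all settings. The relative value of Cd9 ranged over -0.070 to 0.0061 with 1 mouse left out, and was positive without WT replicate 1. With only those homeostatic genes that did not pass, also chosen after seeing the data, it was 0.15, that of Cd63 was 0.019 and that of Igf1 missed the limit (edgeR adjusted p = 0.0264). The cause of these differences was not tested. DESeq2 with its normal prior shrank the fold changes of low genes by construction, to 0.51 for Cst7 and 0.59 for Clec7a on the log2 scale.

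With the replicate number as a block, 0 markers, 0 genes of the wider list and 0 homeostatic genes passed, where 0.642% of all genes were higher, and 5 markers were higher relative to the homeostatic list, where 1.13% were. The labels do not state that mice of the same number are paired, and they name no litters. The correlation of deviations between mice of the same number was -0.37 to 0.261 over 5 pairs. Of 10 libraries 1 correlated best with its own number. Without litter labels these values cannot exclude a pairing. Few counts limit Cst7 (6 to 12 per library), Gpnmb (20 to 39) and Clec7a (25 to 39) in WT.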
